A study of Homo sapiens with 6 samples.

Results

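The 9 genes described here comprise oncofetal genes, active in embryonic tissue and silent or low in most adult tissue, and close relatives and partners of these. Not all 9 are oncofetal themselves. They were listed by symbol: HMGA1 and HMGA2, HMGB1 and HMGB2, the insulin-like growth factor 2 mRNA-binding genes IGF2BP1, IGF2BP2 and IGF2BP3, the let-7 antagonist LIN28B, and DICER1. LIN28B was not analysed here. The other 8 genes each had a row among the 30051 genes counted, and 7 of them had enough counts to be tested among 13341 genes. IGF2BP1 was near absent. The list was drawn up with the changes of some of these genes known, so their own changes are given as a description and without a p-value.

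The cells were MDA-MB-231, an established human line of triple-negative breast cancer. It belongs to the claudin-low subtype and has mesenchymal features. Panobinostat libraries, replicates 1, 2 and 4, came from cells given 50 nM of this broad histone deacetylase inhibitor for 24 h. DMSO libraries, replicates 1, 2 and 3, came from cells given the solvent for 24 h. All libraries came from unmodified cells of the 1 line, and the series describes the repeats of each condition as independent.

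The libraries held 5389638 to 15106148 counts with panobinostat and 6514568 to 11996519 with DMSO. Panobinostat replicate 4 stood apart: on the first principal component, which carried 87.51% of the variance, it lay at −18.27, against −62.95 and −63.87 for panobinostat replicates 1 and 2 and 47.6 to 49.11 for the DMSO libraries. For the listed genes that were tested, folds are therefore also given without it. The claudin-low markers summed to 5410 to 5626 CPM with panobinostat and 5907 to 5984 CPM with DMSO, with VIM at 2859 and 2560 CPM. Of 7 tested, 4 were lower, among them ZEB1 (log2 fold change −0.91) and CAV1 (−0.65), and 2 were higher, SNAI2 (0.84) and VIM (0.16, a call lost without any library other than panobinostat replicate 4). SPARC had only 35 counts in each group, and the luminal and epithelial markers summed to 36.0 to 41.7 CPM with panobinostat and 45.6 to 49.9 CPM with DMSO, with 0 and 1 counts of CDH1. Summed leukocyte markers were at 1.95 to 3.27 CPM with panobinostat and 0.426 to 0.676 CPM with DMSO, nearly all of it CD14 (74 and 14 counts, log2 fold change 2.21 ± 0.36, edgeR adjusted p = 0.00226). PTPRC, which marks leukocytes in general, had 2 counts with panobinostat and 0 with DMSO. Summed fibroblast and endothelial markers reached 63.0 to 95.7 CPM with panobinostat and 24.0 to 26.3 CPM with DMSO, mostly from COL1A1, while LUM and DCN had at most 1 count per group.

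HMGA proteins bind the minor groove of AT-rich DNA through AT hooks and bend chromatin into shapes that other factors can use. HMGA2 is abundant in the embryo and in many tumours, and its long 3' untranslated region (UTR) is a textbook target of the let-7 microRNAs, which hold it down in differentiated cells. LIN28 proteins block the maturation of let-7, Dicer cuts its hairpin, and the IGF2BP proteins bind and stabilise mRNAs, HMGA2 among those reported. HMGB1 and HMGB2 are abundant HMG-box proteins that bend DNA, and HMGB1 outside the cell is an alarm signal.

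The let-7 seed is shown first, because 7 of the 8 genes with a row carry a match to it. RefSeq (GRCh38.p14) gave 9 mature let-7 family sequences from 12 loci, and all 9 shared the seed GAGGUAG at bases 2 to 8. The 4 below are shown because they differ outside the seed, which is in capitals. The microRNAs themselves were not measured, since the libraries were made from poly(A) mRNA.
hsa-let-7a-5p: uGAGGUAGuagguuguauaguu
hsa-let-7d-5p: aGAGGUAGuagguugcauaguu
hsa-let-7i-5p: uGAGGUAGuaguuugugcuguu
hsa-miR-98-5p: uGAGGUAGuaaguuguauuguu

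Seed matches were searched on the mRNA strand, in the 3' UTR of the principal transcript in GENCODE release 29 (GRCh38), as CTACCTCA (8 bases), CTACCTC (7 bases) or TACCTCA (7 bases), with the longer match counted once. The 3003-base UTR of HMGA2 held 7 such matches, 1 of 8 bases and 6 of 7 bases. They are shown because only 5 of 19145 genes had 6 or more, each in 22 bases of the plus strand with the match in capitals.
HMGA2 match 1, chr12:65963299-65963320: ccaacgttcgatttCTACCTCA
HMGA2 match 2, chr12:65964384-65964405: gacctgaataccactTACCTCA
HMGA2 match 3, chr12:65964534-65964555: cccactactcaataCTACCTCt
HMGA2 match 4, chr12:65964896-65964917: taccctccaagtctgTACCTCA
HMGA2 match 5, chr12:65964946-65964967: tgacttgcaaagacCTACCTCc
HMGA2 match 6, chr12:65965799-65965820: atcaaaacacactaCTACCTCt
HMGA2 match 7, chr12:65965818-65965839: tcttaagtcccagtaTACCTCA

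The single 8-base matches of the IGF2BP2 and IGF2BP3 genes, which lie on the minus strand, and the single match of HMGA1 are shown for comparison with HMGA2.
IGF2BP3, chr7:23311795-23311816: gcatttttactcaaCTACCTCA
IGF2BP2, chr3:185644220-185644241: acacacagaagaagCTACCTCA
HMGA1, chr6:34245830-34245851: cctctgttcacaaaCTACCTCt

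IGF2BP1 held 5 matches in 6206 bases, DICER1 2 in 4270 bases, IGF2BP2 2 in 1792 bases, and IGF2BP3 1 in 2153 bases. HMGB1 held 1 in 4653 bases and HMGA1 1 in 1347 bases. HMGB2, with a UTR of 385 bases, held 0. A match was found in 13.9% of all 19145 genes with a UTR and in 16.8% of the 11724 of these that were tested. The genes described here were listed partly for their link to let-7 and most have long UTRs, so their share of 7 in 8 is not set against these. The 6 other HMGA2 transcripts with an annotated UTR held 0 matches, including one with 7421 bases. The deposited counts are per gene and do not separate these transcripts.

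**Figure D1:**
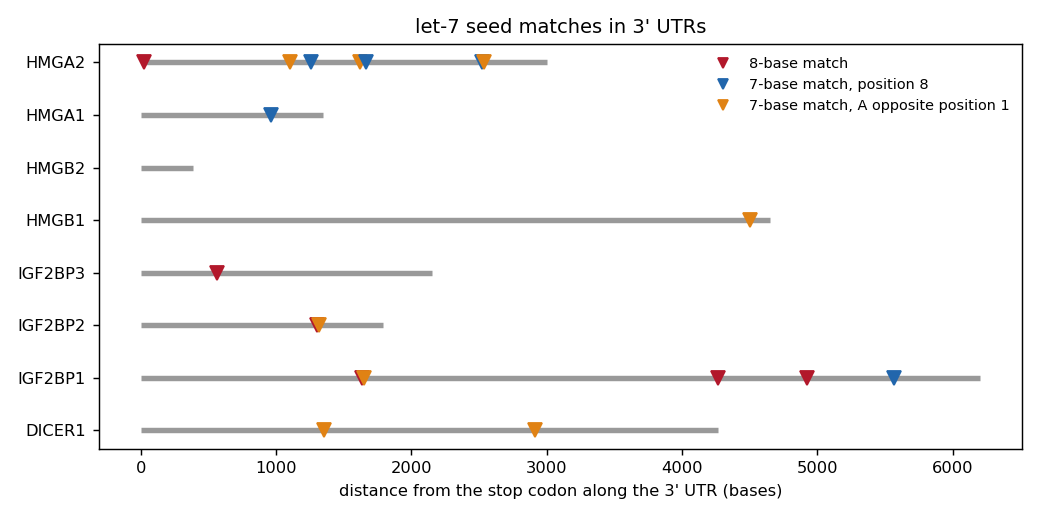
Position of let-7 seed matches (triangles, coloured by the kind of match) along the 3' UTR of the principal transcript of each gene (grey bars), in bases from the stop codon. HMGA2 has 7 matches over 3003 bases, IGF2BP1 has 5 over 6206 bases, and HMGB2 has 0.

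HMGA2 (ENSG00000149948, chr12:65824460-65966291, GRCh38.p14), the gene with the most let-7 matches here, was lower with panobinostat in every library. Its levels, as counts per 1000000 (CPM) after TMM scaling, were 20.2, 17.4 and 85.2 CPM in panobinostat replicates 1, 2 and 4, against 150, 157 and 154 CPM in DMSO replicates 1, 2 and 3. The groups did not overlap, the DMSO values lay close together, and panobinostat replicate 4 was well above replicates 1 and 2. The means were 40.9 ± 38.4 CPM with panobinostat and 154 ± 3.57 CPM with DMSO (SD, n = 3 each), a log2 fold change of −1.93 ± 0.52 (estimate ± SE, edgeR, panobinostat over DMSO throughout), or 3.82-fold lower. Without panobinostat replicate 4 it was −2.98 ± 0.07, or 7.91-fold lower. Like every SE given without replicate 4, this smaller SE leaves out the spread which that library brings. When the 13341 tested genes were ordered from the most negative fold change upward, HMGA2 stood at place 28. In bulk RNA, fewer cells with a transcript and less of it per cell cannot be told apart.

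HMGA1 (ENSG00000137309, chr6:34236873-34246231), the more widely expressed HMGA gene, had 2277, 2413 and 2692 CPM in panobinostat replicates 1, 2 and 4, against 2918, 3147 and 3155 CPM in DMSO replicates 1, 2 and 3. All panobinostat values were below all DMSO values, but by little. The mean was 2461 ± 211 CPM with panobinostat and 3074 ± 134 CPM with DMSO (SD, n = 3 each), a log2 fold change of −0.32 ± 0.07, or 1.25-fold lower, and −0.39 ± 0.04 without panobinostat replicate 4. Per kilobase of exon, HMGA1 stood at place 4 of 13322 genes in DMSO cells, at 1321 CPM per kb, against 9.99 CPM per kb for HMGA2 at place 4871. With panobinostat these levels were 1057 CPM per kb for HMGA1 and 2.66 CPM per kb for HMGA2. Per 100 units of HMGA1 there were 0.134, 0.109 and 0.478 units of HMGA2 in panobinostat replicates 1, 2 and 4, against 0.778, 0.756 and 0.738 in DMSO replicates 1, 2 and 3. The size of this ratio depends on the exon length assigned to HMGA2, 15403 bases, but the fold between the groups does not.

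**Figure D2:**
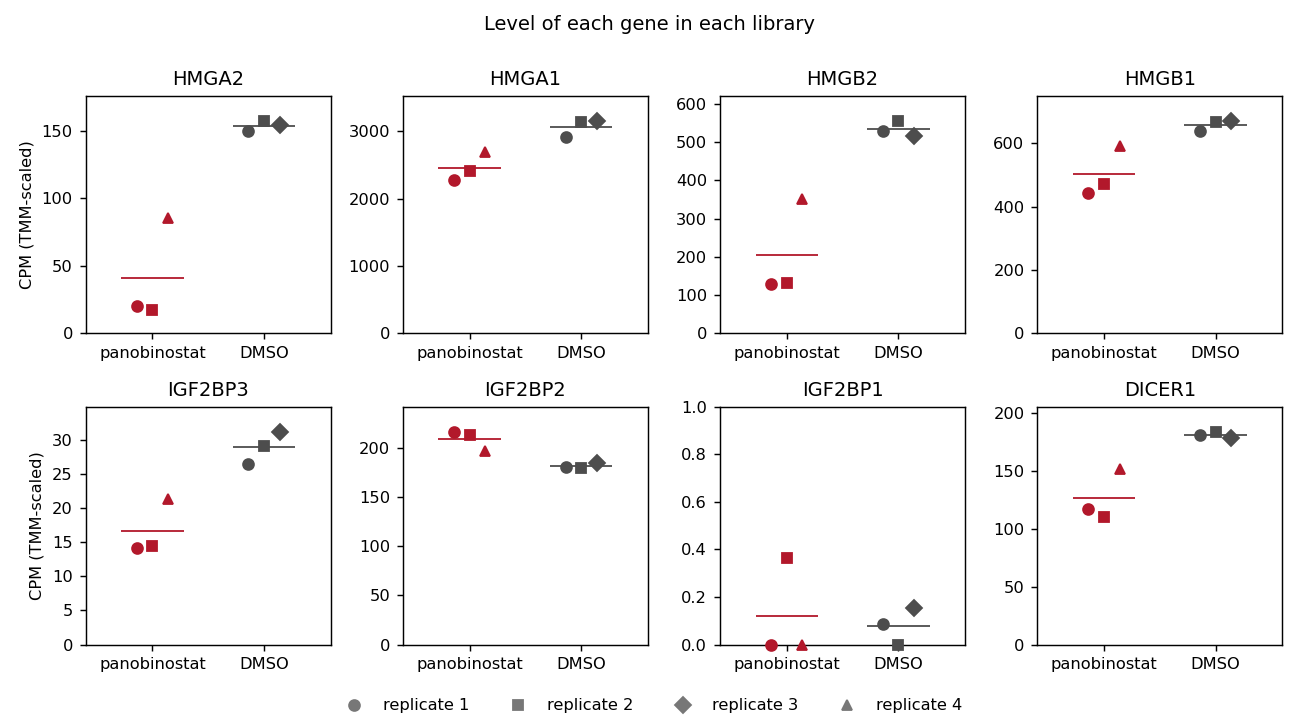
Level of each gene (CPM after TMM scaling, linear axis from 0, a scale per panel) in panobinostat (left, red) and DMSO (right, grey) libraries, with marker shapes for the replicate and a line at the group mean (n = 3 each). All 7 tested genes, HMGA2 and HMGB2 among them, show panobinostat replicate 4 between the other panobinostat libraries and DMSO. IGF2BP2 is the 1 tested gene with higher panobinostat values, and IGF2BP1 is near 0.

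The 7 tested genes all passed an edgeR adjusted p under 0.05, 6 lower and 1 higher with panobinostat, and in all 7 the groups did not overlap. That stands beside 58.9% of all 13341 genes called in either direction, 28.6% called lower, 30.2% called higher, 68.9% without overlap and 34.1% lower without overlap, and beside a median log2 fold change of 0.00 over all genes. Without panobinostat replicate 4 all 7 were called as well, beside 74.9% of all genes in either direction, 37.2% lower and 37.7% higher. Because these genes were picked from this contrast, nothing is read from their count. Over all 6 libraries, HMGA2 and HMGB2 were at least 2-fold lower, as were 4.66% of all genes. With no filter on low counts HMGA2, HMGB2 and IGF2BP2 were not called. The authors' deposited table gives log2 fold changes of −1.75 for HMGA2, −1.24 for HMGB2 and 0.19 for IGF2BP2. The groups of their comparison were assumed to be panobinostat and DMSO. Whether it used only the libraries analysed here was not tested.

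**Figure D3:**
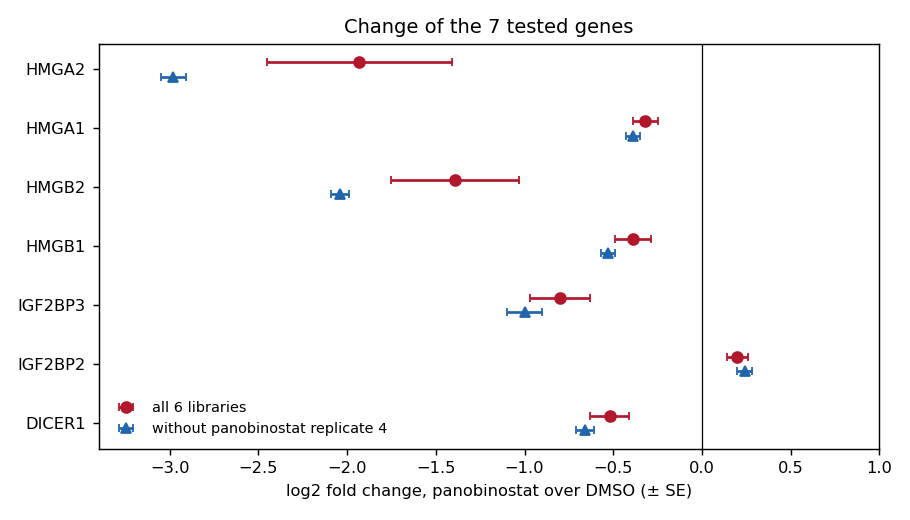
Log2 fold change, panobinostat over DMSO, of the 7 tested genes with its SE (bars), over all 6 libraries (circles) and without panobinostat replicate 4 (triangles). HMGA2 moves most between the settings, with −1.93 over all libraries and −2.98 without that library, and each gene keeps its sign.

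A transcript that lies across the start of HMGA2 was also lower. RPSAP52, a pseudogene transcribed in the opposite direction (chr12:65758020-65826974), had 142 counts with panobinostat and 261 with DMSO, a log2 fold change of −0.94 ± 0.28 (edgeR adjusted p = 0.0204). It lost that call without panobinostat replicate 1 or 2 or DMSO replicate 1 or 3. HMGA2-AS1 had 16 and 28 counts in panobinostat and DMSO cells and was not tested. How the counting treated strand is not stated in the sources used here. Reads of HMGA2 and of these transcripts may thus have been exchanged, which was not tested. The counts of RPSAP52 and HMGA2-AS1 together came to 16.3% of the HMGA2 count with panobinostat and 7.44% with DMSO. These shares do not bound such an exchange. The 8 other tested genes within 500 kb of HMGA2, named for their position after the values were seen, moved both ways. GRIP1, which encodes a synaptic scaffold protein, was lower (log2 fold change −1.08 ± 0.26, edgeR adjusted p = 0.00871), as was IRAK3, an inhibitor of Toll-like receptor signalling (−0.45 ± 0.09, edgeR adjusted p = 0.00531). LLPH was higher, at 0.56 ± 0.15 (edgeR adjusted p = 0.0148, a call lost without panobinostat replicate 1 or 2 or DMSO replicate 1 or 3).

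Among the genes whose pattern over the 6 libraries was most like that of HMGA2, by the root mean square difference of centred log2 CPM among 9771 genes, were LMNB1 (0.0927), RCSD1 (0.130), BCAR3 (0.132) and PLAU (0.137). LMNB1 encodes lamin B1 of the nuclear lamina and PLAU the urokinase protease. LMNB1 averaged 89.1 CPM with panobinostat and 312 CPM with DMSO, a log2 fold change of −1.82, and −2.85 without panobinostat replicate 4. PLAU averaged 158 CPM with panobinostat and 542 CPM with DMSO, at −1.78, and −2.75 without that library. For HMGA1 they included CCDC14 (0.0199), RPL26 (0.0213), POLK (0.0214) and CENPB (0.0256), among them a ribosomal protein, a DNA polymerase and a centromere protein.

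Of 7 genes reported elsewhere to be regulated by HMGA proteins, 6 were tested, with 3 higher, 3 lower and a median log2 fold change of −0.15 beside 0.00 for all genes. SNAI1, the Snail factor of epithelial-mesenchymal transition that HMGA2 is reported to switch on, had 16.4, 12.6 and 8.85 CPM in panobinostat replicates 1, 2 and 4, against 1.01, 1.14 and 1.08 CPM in DMSO replicates 1, 2 and 3. It was far higher in each panobinostat library, with a log2 fold change of 3.58 ± 0.31 (edgeR adjusted p = 0.000573). CCNA2, the cyclin A2 gene, fell by 1.11 ± 0.23 on the log2 scale (edgeR adjusted p = 0.00545), to 142 ± 58.0 CPM in panobinostat cells, against 306 ± 3.74 CPM in DMSO cells. CCNB2, a mitotic cyclin, had −1.02 ± 0.19 (edgeR adjusted p = 0.00368), and BRCA1, a DNA repair gene, −0.56 ± 0.13 (edgeR adjusted p = 0.00746). The calls of ID3 (0.66 ± 0.19, edgeR adjusted p = 0.0191) and ERCC1 (0.26 ± 0.09, edgeR adjusted p = 0.0396) were less firm. ERCC1 lost its call without each library but panobinostat replicate 4, and ID3 without panobinostat replicate 1 or DMSO replicate 1 or 2. The higher count of 3 was 1 without panobinostat replicate 1, DMSO replicate 1 or DMSO replicate 2, and was 2 without panobinostat replicate 2 or DMSO replicate 3.

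HMGB2 (ENSG00000164104, chr4:173331376-173334358), the HMGB gene most tied to proliferating cells, was the other gene of the list with a large difference. It had 129, 132 and 352 CPM in panobinostat replicates 1, 2 and 4, against 528, 555 and 517 CPM in DMSO replicates 1, 2 and 3. Again the groups did not overlap and panobinostat replicate 4 was the highest of its group. The mean was 204 ± 128 CPM with panobinostat and 534 ± 19.3 CPM with DMSO (SD, n = 3 each), a log2 fold change of −1.39 ± 0.36, or 2.62-fold lower, and −2.04, or 4.10-fold lower, without panobinostat replicate 4.

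HMGB1 (ENSG00000189403, chr13:30456704-30617597), its ubiquitous relative, had 443, 471 and 590 CPM in panobinostat replicates 1, 2 and 4, against 638, 668 and 670 CPM in DMSO replicates 1, 2 and 3. The values of the groups lay apart by a narrow margin. The log2 fold change was −0.39 ± 0.10, or 1.31-fold lower, and −0.53 without panobinostat replicate 4. Per kilobase, there were 81.1, 78.3 and 166 units of HMGB2 per 100 units of HMGB1 in panobinostat replicates 1, 2 and 4, against 231, 231 and 215 in DMSO replicates 1, 2 and 3. This ratio rests on exon lengths of 2775 bases for HMGB2 and 7723 bases for HMGB1, so which of them was the more abundant depends on those lengths. The fold between the groups does not. HMGB1 has many processed pseudogenes, so its reads are partly uncertain: 15 of them held 1661 counts with panobinostat and 2062 with DMSO, 12.5% and 12.4% of the HMGB1 count. The 5 HMGA1 pseudogene rows held 0.463% and 0.521% of the HMGA1 count.

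Cell cycle markers came from a list chosen with earlier results of these data known, and 28.6% of all tested genes were called lower. All 10 markers tested were lower, with a median log2 fold change of −0.85, and −1.07 without panobinostat replicate 4. Their summed level was 2009 to 2998 CPM with panobinostat and 3935 to 4047 CPM with DMSO, and the highest panobinostat value, 2998 CPM, was that of replicate 4. CCNE2, a G1/S cyclin, had a log2 fold change of −1.13 ± 0.18 (edgeR adjusted p = 0.00224), at 18.7 ± 5.58 CPM with panobinostat and 41.0 ± 1.40 CPM with DMSO. AURKB, a mitotic kinase, averaged 64.4 ± 20.4 CPM with panobinostat and 128 ± 5.02 CPM with DMSO (edgeR adjusted p = 0.0037). CCNB1, cyclin B1, averaged 199 ± 73.4 CPM with panobinostat and 398 ± 12.2 CPM with DMSO (edgeR adjusted p = 0.00571). Their part in the values of HMGA2 and HMGB2 was not tested.

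Among 11 other tested HMG-box and HMGN genes, which encode further chromatin proteins of the high mobility group, 1 was higher and 6 were lower, with 4 not called and a median of −0.28. HMGXB4 had a log2 fold change of −0.99 ± 0.20 (edgeR adjusted p = 0.00465), the HMGB paralogue HMGB3 −0.76 ± 0.16 (edgeR adjusted p = 0.00515), and the nucleosome-binding HMGN2 −0.60 ± 0.14 (edgeR adjusted p = 0.008). HMGXB3 was the 1 higher gene (0.27 ± 0.08, edgeR adjusted p = 0.017), a call lost without panobinostat replicate 1 or DMSO replicate 2 or 3. Without panobinostat replicate 4 there were 2 higher genes. Not called were HMGN3 (0.01 ± 0.09), HMGN4 (0.01 ± 0.07), HMGN5 (−0.22 ± 0.12) and HMG20B (0.17 ± 0.07). So the group did not move as a whole: HMGN2 averaged 269 and 407 CPM in panobinostat and DMSO cells, and HMGN4 94.3 and 94.0 CPM. Of the genes listed as receptors and other partners of HMGB1, 3 were tested. XPO1, the nuclear exportin and not an extracellular receptor, was lower by 1.20 ± 0.24 on the log2 scale (edgeR adjusted p = 0.00444). XPO1 averaged 198 ± 82.0 CPM with panobinostat and 456 ± 11.3 CPM with DMSO. TLR4, a receptor for HMGB1, was lower (−0.43 ± 0.14, edgeR adjusted p = 0.0296), a call lost without panobinostat replicate 1 or 2 or DMSO replicate 2 or 3, and TLR2 was not called (−0.36 ± 0.29).

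The IGF2BP genes encode paralogous RNA-binding proteins with RRM and KH domains, and of the 3 here 1 was lower with panobinostat, 1 higher and 1 near absent. IGF2BP3 (ENSG00000136231, chr7:23310209-23470491), the paralogue most often re-expressed in carcinoma, had 14.2, 14.5 and 21.3 CPM in panobinostat replicates 1, 2 and 4, against 26.5, 29.1 and 31.1 CPM in DMSO replicates 1, 2 and 3. All panobinostat libraries were below all DMSO libraries. The log2 fold change was −0.80 ± 0.17, or 1.74-fold lower. The mean was 16.7 ± 4.02 CPM with panobinostat and 28.9 ± 2.29 CPM with DMSO (SD, n = 3 each), and 14.3 CPM over panobinostat replicates 1 and 2.

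IGF2BP2 (ENSG00000073792, chr3:185643130-185825042), the paralogue that stays on in many adult tissues, had 216, 213 and 197 CPM in panobinostat replicates 1, 2 and 4, against 181, 180 and 185 CPM in DMSO replicates 1, 2 and 3. It was the 1 gene of the list that was higher with panobinostat, by a margin small beside those of HMGA2 and HMGB2. The log2 fold change was 0.20 ± 0.06, or 1.15-fold higher, and 0.24 without panobinostat replicate 4. The call of IGF2BP2 was lost without any library other than panobinostat replicate 4. Per 100 units of IGF2BP2 per kilobase there were 3.66, 3.79 and 6.01 units of IGF2BP3 in panobinostat replicates 1, 2 and 4, against 8.17, 9.01 and 9.37 in DMSO replicates 1, 2 and 3. IGF2BP2 was thus the main transcript of the family in every library.

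IGF2BP1 (ENSG00000159217, chr17:48996558-49056145), the founding member, had 0, 2 and 0 counts in panobinostat replicates 1, 2 and 4, against 1, 0 and 1 counts in DMSO replicates 1, 2 and 3. With 2 counts in each group the ratio, scaled for depth, was 0.945 with a 95% counting interval of 0.0685 to 13.0, which covers counting error only. No difference was detectable at this depth.

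Transcripts reported to be bound by IGF2BP proteins moved in both directions: 10 were tested, 5 higher and 3 lower, with a median log2 fold change of 0.23. MYC had 367, 377 and 316 CPM in panobinostat replicates 1, 2 and 4, against 238, 255 and 254 CPM in DMSO replicates 1, 2 and 3 (log2 fold change 0.51 ± 0.08, edgeR adjusted p = 0.00202). FSCN1, the actin bundler fascin, was higher (1.19 ± 0.14, edgeR adjusted p = 0.000922). MKI67, which encodes the Ki-67 antigen of cycling cells, was lower (−0.94 ± 0.19, edgeR adjusted p = 0.00509), as were CTNNB1, encoding beta-catenin (−0.30 ± 0.07, edgeR adjusted p = 0.00639), and CD164 (−0.25 ± 0.07, edgeR adjusted p = 0.0134). The call of CD164 was lost without panobinostat replicate 1 or DMSO replicate 1 or 2. Without any of these 3 libraries the lower count of 3 was 2. The IGF2 transcript from which the family takes its name was not called (0.09 ± 0.09), at 28.3 ± 0.706 CPM with panobinostat and 26.6 ± 0.913 CPM with DMSO, nor was CD44 (0.09 ± 0.05).

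IGF2BP proteins are also readers of N6-methyladenosine (m6A), a methyl mark on mRNA. Among 19 m6A writers, erasers and other readers, all tested, 2 were higher, 10 lower and 7 not called, with a median log2 fold change of −0.31. METTL16, a methyltransferase for U6 RNA and some mRNAs, had 38.1, 38.6 and 36.9 CPM in panobinostat replicates 1, 2 and 4, against 57.5, 53.2 and 63.3 CPM in DMSO replicates 1, 2 and 3, and here replicate 4 was as low as the others (log2 fold change −0.61 ± 0.09, edgeR adjusted p = 0.00172). RBM15, a subunit of the writer complex, was lower (−0.64 ± 0.19, edgeR adjusted p = 0.0218), and FMR1, a reader, was lower (−0.48 ± 0.15, edgeR adjusted p = 0.0258). The demethylase gene ALKBH5 (0.25 ± 0.09, edgeR adjusted p = 0.0375) and the reader gene YTHDF1 (0.21 ± 0.07, edgeR adjusted p = 0.0263) were higher. The calls of RBM15, FMR1 and ALKBH5 were lost without any library other than panobinostat replicate 4, and that of YTHDF1 without panobinostat replicate 1 or 2 or DMSO replicate 2 or 3. Without panobinostat replicate 4 there were 5 higher and 11 lower genes. The higher count was 1 without DMSO replicate 1 and 0 without panobinostat replicate 1 or 2 or DMSO replicate 2 or 3, and the lower count was 6 without panobinostat replicate 1 or 2 or DMSO replicate 1 or 3.

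DICER1 (ENSG00000100697, chr14:95086228-95158010), the RNase III enzyme that cuts microRNA hairpins and whose own UTR holds 2 let-7 matches, had 117, 110 and 151 CPM in panobinostat replicates 1, 2 and 4, against 181, 183 and 178 CPM in DMSO replicates 1, 2 and 3. The DMSO values lay within a few CPM of each other and all panobinostat values were below them. The log2 fold change was −0.52 ± 0.11, or 1.43-fold lower, and −0.66 without panobinostat replicate 4. DICER1-AS1 had 45 and 30 counts in panobinostat and DMSO cells and was not called.

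Of 22 tested genes for microRNA processing, Argonaute proteins and let-7 turnover, 10 were lower, 3 higher and 9 not called, with a median of −0.18. DGCR8, the RNA-binding partner of Drosha, had 28.2, 23.4 and 53.5 CPM in panobinostat replicates 1, 2 and 4, against 71.9, 72.2 and 79.2 CPM in DMSO replicates 1, 2 and 3 (log2 fold change −1.09 ± 0.26, edgeR adjusted p = 0.00862). The helicase gene DDX17 (−1.02 ± 0.23, edgeR adjusted p = 0.00673) and TARBP2, encoding a Dicer partner (−0.85 ± 0.16, edgeR adjusted p = 0.00384), were also lower. The 3 higher genes were ZSWIM8, TUT7 and AGO1. ZSWIM8, the ubiquitin ligase adaptor of target-directed microRNA decay, had 71.2, 63.2 and 49.5 CPM in panobinostat replicates 1, 2 and 4, against 36.1, 34.5 and 36.0 CPM in DMSO replicates 1, 2 and 3 (log2 fold change 0.79 ± 0.13, edgeR adjusted p = 0.00268). TUT7, a terminal uridylyltransferase that acts on let-7 precursors, was higher (0.54 ± 0.10, edgeR adjusted p = 0.00374), as was AGO1, an Argonaute gene (0.43 ± 0.09, edgeR adjusted p = 0.0063). The Argonaute genes did not share a direction: AGO2 was lower (−0.75 ± 0.16, edgeR adjusted p = 0.00596), as was AGO4 (−0.68 ± 0.15, edgeR adjusted p = 0.00662), both named after their values were seen. Without panobinostat replicate 4 there were 5 higher genes and 12 lower.

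Host genes of let-7 hairpins were measured, unlike the microRNAs they carry. Of 7 tested, 6 were lower, 0 higher (0 by each other tool run, and 0 at an unadjusted p under 0.05) and 1 not called, with a median of −0.79. MIRLET7IHG, the host of let-7i, had 2.42, 2.75 and 5.25 CPM in panobinostat replicates 1, 2 and 4, against 7.18, 7.66 and 7.43 CPM in DMSO replicates 1, 2 and 3 (log2 fold change −1.15 ± 0.28, edgeR adjusted p = 0.00954). MIRLET7BHG, the host of let-7b and let-7a-3, had 2.05 ± 0.276 CPM with panobinostat and 4.01 ± 0.414 CPM with DMSO (−0.93 ± 0.22, edgeR adjusted p = 0.00742). SPACA6, whose span holds let-7e, was lower (−1.15 ± 0.34, edgeR adjusted p = 0.0191), a call lost without panobinostat replicate 1 or DMSO replicate 2 or 3. MIR99AHG, the host of let-7c, was not called (−0.79 ± 0.38), and its groups overlapped through panobinostat replicate 4. The lower count was 7 without that library and 4 without panobinostat replicate 1, DMSO replicate 2 or DMSO replicate 3. Spliced host RNA is a different product from the hairpin, so these levels are not let-7 levels.

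Other published let-7 targets moved in both directions: of 27 tested, 12 were higher, 7 lower and 8 not called, with a median log2 fold change of 0.16. THBS1, encoding the matrix protein thrombospondin 1, was higher, at 1556 ± 410 CPM with panobinostat and 363 ± 4.17 CPM with DMSO (log2 fold change 2.10 ± 0.18, edgeR adjusted p = 0.000573). CCND2, cyclin D2, was higher (1.67 ± 0.26, edgeR adjusted p = 0.0021), as was the orphan nuclear receptor gene NR6A1 (1.56 ± 0.17, edgeR adjusted p = 0.000727). CCND1, cyclin D1, was lower, with 269, 286 and 649 CPM in panobinostat replicates 1, 2 and 4, against 923, 973 and 962 CPM in DMSO replicates 1, 2 and 3 (−1.25 ± 0.31, edgeR adjusted p = 0.00946). The phosphatase gene CDC25A (−1.10 ± 0.24, edgeR adjusted p = 0.00626) and the kinase gene CDK6 (−0.97 ± 0.19, edgeR adjusted p = 0.00399) were lower too. The 3 lower genes named all drive the cell cycle, and so does CCND2, which was higher. With panobinostat replicate 4 left out 16 were higher, and with panobinostat replicate 1 or 2 or DMSO replicate 3 left out 8 were.

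**Figure D4:**
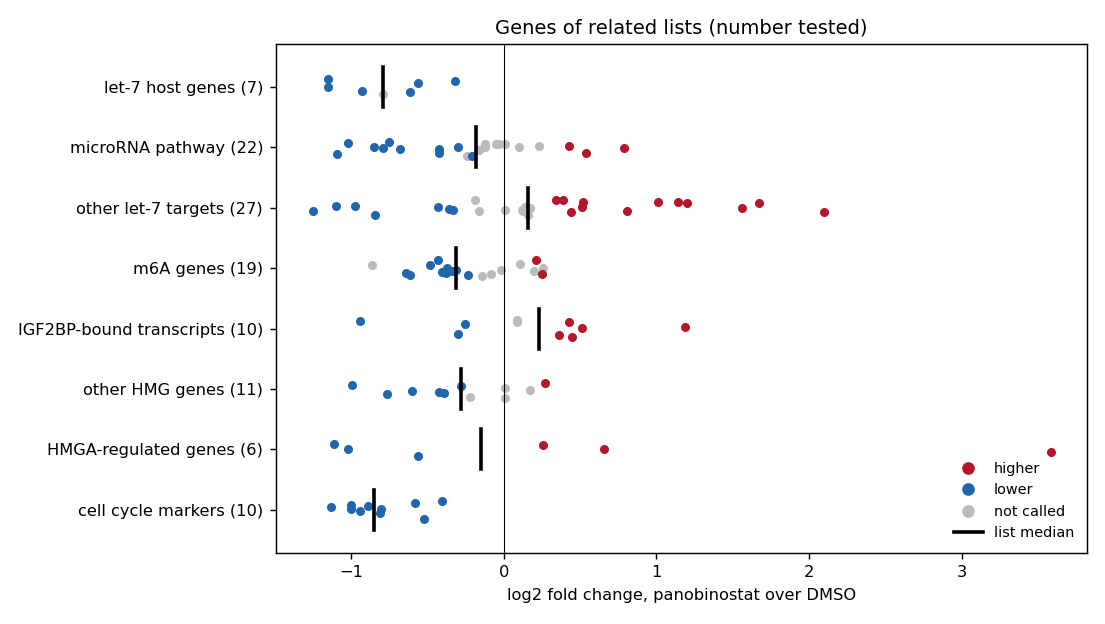
Log2 fold change, panobinostat over DMSO, of each tested gene (points, red higher, blue lower, grey not called) in 8 related lists, with a bar at the list median and the number tested in brackets. Let-7 host genes and cell cycle markers lie to the left of 0, while other let-7 targets and IGF2BP-bound transcripts lie on both sides with medians of 0.16 and 0.23.

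Genes were then grouped by let-7 matches in place of published targets. With the listed genes left out, the median log2 fold change was 0.01 for 9758 tested genes with 0 matches, 0.06 for 1601 with 1, −0.09 for 278 with 2 and −0.03 for 80 with 3 or more. Of those 80, 26 were higher and 27 lower, or 32.5% and 33.8%, beside 31.6% and 30.1% of the genes with 0 matches. The quartiles of the 80 genes were −0.37 and 0.40, and HMGA2, at −1.93, lay below both. The median UTR length grew with the number of matches, at 952, 2569, 4519 and 7092 bases over the 4 classes, so matches and UTR length are not separated by this grouping.

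The genes richest in matches moved in both directions. Over all tested genes, 30.2% were called higher and 28.6% lower. Of 22 tested genes with 4 or more matches, HMGA2 included, 10 were higher and 6 lower. Of 7 tested genes with 5 or more, named for their matches after the values were seen, 5 were higher and 2 lower. HMGA2 (−1.93 ± 0.52) and FIGN (−0.86 ± 0.23) were lower. Among the higher genes were NR6A1 (1.56 ± 0.17), ARID3B (1.20 ± 0.18), HEMK1 and ONECUT2. FIGN lost its call without DMSO replicate 1 or 3, and ONECUT2 lost its call without panobinostat replicate 1 or 2 or DMSO replicate 1 or 2.

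**Figure D5:**
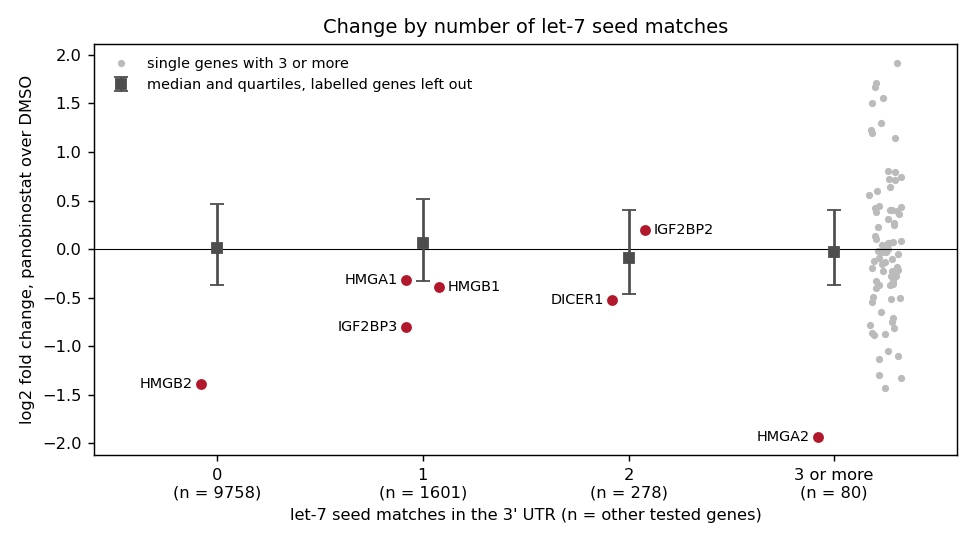
Log2 fold change, panobinostat over DMSO, by the number of let-7 seed matches in the 3' UTR: squares are medians and bars the quartiles of all other tested genes (n under each class), grey points single genes with 3 or more, and red points the 7 listed genes. The medians stay between −0.09 and 0.06, and HMGA2, at −1.93, lies below the grey points.

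Among other oncofetal and germ-cell genes, 4 were tested, with 2 higher, 1 lower and 1 not called. SOX2, a pluripotency factor, had 3.40, 3.84 and 2.70 CPM in panobinostat replicates 1, 2 and 4, against 0.507, 0.852 and 0.774 CPM in DMSO replicates 1, 2 and 3 (log2 fold change 2.27 ± 0.30, edgeR adjusted p = 0.00122). PEG10, an imprinted gene derived from a retrotransposon, had 553 ± 51.5 CPM with panobinostat and 391 ± 1.54 CPM with DMSO (0.50 ± 0.07, edgeR adjusted p = 0.0017). TPBG, the oncofetal antigen 5T4, was lower (−0.39 ± 0.11, edgeR adjusted p = 0.0137), a call lost without panobinostat replicate 1 or 2 or DMSO replicate 2. The lower count was then 0. IGF2 was the gene not called. The classical germ-cell and stem-cell genes SALL4 and TRIM71 had at most 1 count per group, and the fetal serum protein gene AFP had 3 counts with panobinostat and 2 with DMSO.

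The position of panobinostat replicate 4 was much the same for HMGA2, HMGB2 and HMGB1. On the log2 scale it lay 28.2% of the way from the DMSO mean to that of panobinostat replicates 1 and 2 for HMGA2, 29.6% for HMGB2 and 30.0% for HMGB1. It lay further along for DICER1 (38.6%), IGF2BP3 (43.5%), HMGA1 (48.8%) and IGF2BP2 (49.7%). Over 1193 genes at least 2-fold lower without that library the median was 37.6%, with quartiles of 30.2% and 45.0%. HMGA2 and HMGB2 lay below that lower quartile. In 1698 genes at least 2-fold higher without that library the median was 64.4%.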

How the data were processed

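RNA was extracted from the cells with a column kit and made into stranded poly(A) mRNA libraries, per the labels' protocols. The authors deposited raw counts per gene, not normalised, with their own log2 fold changes and p-values in the same table. Per the submitters' processing notes, the build was GRCh38.p14. The sources used here do not name the aligner, the annotation or the strand setting. The authors' values were matched to the counts by gene identifier, and further libraries in their sum were not analysed here.

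Counts were tested with edgeR 4.0.16 (quasi-likelihood, robust, TMM, treatment as the only term) in R 4.3.3. The filterByExpr filter kept 13341 genes. Calls used a Benjamini-Hochberg adjusted p under 0.05 over all of them. Each SE was derived as the absolute log2 fold change divided by the square root of the quasi-likelihood F statistic. CPM are counts per 1000000 of the library total times its TMM factor, and CPM per kb divide by union exon length in GENCODE release 29. Symbols came from the deposited table for 18982 genes and from a reference table for 10760. The smallest p of an exact test of 3 against 3 is 0.1, so none was used.

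The genes and the 14 lists were chosen with earlier results of these data known. From each list the text names up to 3 called genes per direction with the largest change at 1 CPM or more, and those that went against the others or were not called where these were 5 or fewer. Neighbours of HMGA2 and genes rich in let-7 matches were named outside that rule. A few genes chosen this way are counted but not reported here. Fits were tested on simulated data. Alternatives were other scaling (DESeq2 size factors, upper quartile, library size only), no filter, DESeq2 1.42.0, limma 3.58.1 voom with quality weights, a replicate block, and each library left out in turn.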

Additional observations from a re-analysis of the deposited data

How the results depend on the processing

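All 7 tested genes kept their direction under every alternative run. With no filter on low counts 4 of the 7 were called and 0 of them higher, against 7 and 1 in the fit reported. The DESeq2 Wald test also called 0 higher. Leaving out 1 library at a time gave 0 to 1 higher. With no filter, CCNA2, CCNB1, MKI67, DGCR8, DDX17, CCND1, XPO1, HMGXB3, ID3, ERCC1, ALKBH5 and YTHDF1 were not called either, and the DESeq2 Wald test did not call ID3, ERCC1, ALKBH5 or YTHDF1. The cause of these differences was not tested.

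HMGN3, HMGN4 and CLDN7 lay near 0, were not called in any of these settings and changed sign in some. HMGN3 was −0.05 with no filter, −0.08 with the replicate block, −0.00 with the DESeq2 Wald test and −0.02 with voom quality weights. Leaving out 1 library gave −0.04 to 0.06. HMGN4 was −0.05 with no filter, −0.02 with the replicate block, −0.00 with the DESeq2 Wald test, −0.01 with voom quality weights, and −0.02 to 0.03 with 1 library left out. CLDN7, a luminal marker, was −0.04 with no filter and −0.06 to 0.09 with 1 library left out.

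Replicate numbers are shared for 1 and 2 only, and same-numbered libraries had correlations of 0.0514 and 0.00807 in their deviations from the group means, so the numbers were not taken as pairs. The number of genes called was 9981 with the block, against 7853 in the fit reported. The block by construction takes no contrast from panobinostat replicate 4 or DMSO replicate 3. Leaving out single libraries gave 5765 to 9993 genes, the highest without panobinostat replicate 4. The DESeq2 Wald test called 7087 genes and voom with quality weights 9956. Counting only 8-base let-7 matches, chosen after seeing the data, gave a median of 0.08 for 16 genes with 2 or more. Depth limits IGF2BP1 most, which had 4 counts over all 6 libraries.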
